A study of Mus musculus with 9 samples.

Results

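Livers of mice given AAVrh.10mCherry were compared with livers of mice given PBS, each liver taken as 1 sum of transcripts. AAVrh.10mCherry is an adeno-associated virus vector of serotype rh.10 named for mCherry, a red fluorescent protein used as a reporter, and PBS is the saline given to the control mice. All mice were male, wild-type C57BL/6, aged 8 weeks, and were injected into a vein. The AAVrh.10mCherry group was Mouse3, Mouse6 and Mouse9, a further group given AAVrh.10Null was Mouse2, Mouse5 and Mouse8, and the PBS group was Mouse1, Mouse4 and Mouse7. The comparison therefore rested on 6 of the 9 livers. Not given in the sources used here are the vector dose, the promoter that drives mCherry and the interval between injection and harvest. Single liver cells had been captured by Drop-seq, in which each cell's RNA is tagged with a cell barcode and each molecule with a unique molecular identifier (UMI), so that molecules and not reads are counted. Every barcode with at least 200 detected genes was added to its liver's sum, which used 26518 barcodes of these 6 livers of 44898 in all 9.

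After intravenous injection, adeno-associated vectors of this serotype reach hepatocytes, the main cell type of the liver, in which the carried gene is transcribed from DNA that mostly stays outside the chromosomes. A vector preparation also meets innate sensors of nucleic acid, interferon signalling and complement, and a foreign reporter is made in the same cells that supply plasma proteins, bile acids and haem enzymes. In male mice, pulses of growth hormone acting through STAT5B keep a set of male-biased liver genes high and a set of female-biased genes low, and that set is a sensitive readout of the hormonal state of an individual liver.

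The 6 libraries were not equal, and 2 of them stood apart before any comparison. The AAVrh.10mCherry sums held 5931276 UMIs (Mouse3), 5054278 (Mouse6) and 8585136 (Mouse9), and the PBS sums held 11220147 (Mouse1), 5332359 (Mouse4) and 291338 (Mouse7). Mouse7 kept 550 of its 3600 barcodes, and a gene with a single UMI in it reached 3.45 TMM-scaled CPM (counts per 1000000 UMIs). Its median Spearman correlation with the other 5 livers was 0.830, against 0.929 for Mouse6 and 0.952 to 0.965 for the other 4. Mouse6 had the highest mitochondrial share, 17.8% of its UMIs, against 3.43% to 10.2% in the other 5. Barcodes ending in an undetermined base made up 4.83% of those of Mouse7 and 25.4% to 27.1% of those of the other 5 livers. In the AAVrh.10Null livers, which also entered the fit, the share was 0.0972% in Mouse2, 27.5% in Mouse5 and 0.278% in Mouse8. Whether Mouse7, Mouse2 or Mouse8 was processed apart from the rest is not stated. At most 6 barcodes were shared by any pair of the 9 libraries. Male sex was borne out in every library: Ddx3y, a Y-linked helicase, was counted in all 9, and Xist, the RNA of the inactive X chromosome, had 0 to 8 UMIs. Summed hepatocyte markers were at 92222, 70285 and 81508 CPM in the AAVrh.10mCherry livers and 97336, 105360 and 100490 CPM in the PBS livers. Haemoglobin and red cell genes summed to 276, 1153 and 457 CPM in the AAVrh.10mCherry livers and 190, 796 and 193 CPM in the PBS livers. Apart from red cells, no marker list of another cell type summed to more than 500.4 CPM in any liver. In such sums, fewer cells of a type and less RNA per cell cannot be told apart.

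The transgene marked its group. In CPM of all UMIs of a liver, mCherry was at 7979 in Mouse3 (95% exact Poisson interval 7907 to 8051), 6150 in Mouse6 (6082 to 6219) and 1797 in Mouse9 (1769 to 1826). In the PBS livers it was at 24.3 CPM in Mouse1 (273 UMIs, interval 21.5 to 27.4) and at 0 in Mouse4 and Mouse7, where a floor of 3 UMIs corresponds to 0.563 and 10.3 CPM. The groups did not overlap, and Mouse9, the lowest AAVrh.10mCherry liver, was still far above Mouse1. At least 1 mCherry UMI was found in 99.9% of the barcodes of Mouse3, 97.3% of Mouse6 and 86.4% of Mouse9, at median depths of 1372.5, 764 and 1219 UMIs per barcode, and in 4.58% of those of Mouse1, at a median of 1990. In the AAVrh.10Null livers the level was 0 in Mouse2, 22.7 CPM in Mouse5 and 0.149 CPM in Mouse8. Pooled over a group, mCherry was at 4795 CPM in the AAVrh.10mCherry livers and 16.2 CPM in the PBS livers, a ratio of 296. An exact 2-sided permutation test over the 6 livers gave p = 0.1, the smallest that 3 against 3 allows. Intervals and floors cover counting error only, and the source of the UMIs in Mouse1 was not tested.

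**Figure D1:**
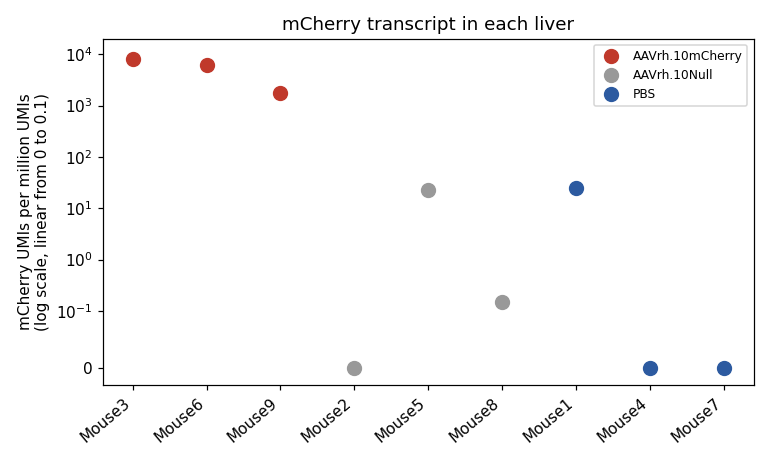
mCherry CPM (of all UMIs) in each of the 9 livers, on a log axis that is linear from 0 to 0.1, with AAVrh.10mCherry livers on the left, AAVrh.10Null in the middle and PBS on the right. Each point is 1 liver; the AAVrh.10mCherry livers lie at 1797 to 7979, Mouse5 and Mouse1 lie at 22.7 and 24.3, and Mouse2, Mouse4 and Mouse7 at 0.

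No mouse gene passed an adjusted p of 0.05 in the AAVrh.10mCherry livers relative to the PBS livers, and mCherry itself did not pass either. edgeR's quasi-likelihood test with Benjamini-Hochberg adjustment called 0 of 11321 genes (0%), with 744 genes (6.57%) at an unadjusted p under 0.05 and a smallest adjusted p of 0.717. On the same genes limma-voom called 0, with 819 at an unadjusted p under 0.05, and DESeq2 called 2, Alas1 and the predicted gene Gm45836, both higher in AAVrh.10mCherry livers. Gm45836, named after its values were seen, was at 22.4, 44.8 and 16.3 CPM in the AAVrh.10mCherry livers and 2.002, 2.93 and 3.45 CPM in the PBS livers, without overlap. With no filter on low counts edgeR called 102 of 26282 genes, mCherry among them, and for 62 of the 102 the groups overlapped. Below, a gene passed in edgeR only where it did so with that filter, unless the fit without it is named. The log2 fold change of mCherry was 8.73 ± 1.78 (SE, n = 3 livers per group). In this test mCherry was not called, at 1797 CPM or more in each AAVrh.10mCherry liver and 24.3 CPM or less in each PBS liver. Its unadjusted edgeR p was 0.00031, and its SE was wide beside that of Alas1, 0.47. It is therefore no gauge of which smaller changes in other genes the test could call. Since no gene passed, genes are described below by their value in every liver and by whether the groups overlap.

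For 1535 genes (13.6% of those tested) all 3 AAVrh.10mCherry livers lay outside the range of the 3 PBS livers, 991 (8.75%) above it and 544 (4.81%) below it. If group labels were exchangeable, 3 livers would lie apart from 3 others, in either direction, with a probability of 0.1. Many of these genes could thus lie apart by order alone, and lying apart is weak evidence for any single gene. A looser criterion, that all 3 AAVrh.10mCherry livers lay on 1 side of the PBS mean, was met by 3468 genes above (30.6%) and 3002 below (26.5%). Mouse6 did not simply follow Mouse3 and Mouse9: of 1379 genes for which those 2 livers were both above the PBS range, Mouse6 was above it too for 991, inside it for 333 and below it for 55. Of 838 genes for which they were both below, Mouse6 was below too for 544, inside for 244 and above for 50. Among the 4458 genes with a mean of at least 20 CPM over the 6 livers, 279 lay above and 299 below, and only 7 and 20 of those differed by at least 2-fold. Mouse7 was the lowest of the 6 livers for 1695 and the highest for 1132 of these 4458 genes, so a PBS range often ended at the thinnest library. With 1 liver left out the number of genes apart was 3254 without Mouse3, 2295 without Mouse6, 1980 without Mouse9, 3429 without Mouse1, 2950 without Mouse4 and 3020 without Mouse7, and the share of them that lay above was 52.7% without Mouse7 against 64.6% with all 6.

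Alas1 had the largest fold change among the 11 mouse genes named for lying above the PBS range. It encodes the rate-limiting enzyme of haem synthesis in liver and lies at chr9:106233455-106248654 on the minus strand (mm10). Its TMM-scaled level was 110 CPM in Mouse3, 338 in Mouse6 and 256 in Mouse9, and 52.3 CPM in Mouse1, 78.4 in Mouse4 and 41.4 in Mouse7. Every AAVrh.10mCherry liver exceeded every PBS liver, though Mouse3 did so narrowly and the AAVrh.10mCherry livers differed among themselves more than the PBS livers did. The log2 fold change was 1.97 ± 0.47 (SE, edgeR adjusted p = 0.717), and it was 1.61 without Mouse6 and 1.83 without Mouse7. Alas1 passed in DESeq2 and, in edgeR, without the filter on low counts. The AAVrh.10Null livers, compared against the same PBS livers, were at 348, 284 and 114 CPM.

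Gstp1 had the largest fold change among the 12 genes named for lying below it. It encodes a pi-class glutathione transferase that conjugates electrophiles and is higher in livers of male mice, and it lies at chr19:4035407-4037985 on the minus strand. Its level was 1260 CPM in Mouse3, 399 in Mouse6 and 918 in Mouse9, and 2602 CPM in Mouse1, 2638 in Mouse4 and 2216 in Mouse7. The 3 PBS livers lay close together and all 3 AAVrh.10mCherry livers lay well below them, with a log2 fold change of -1.53 ± 0.43 (SE, edgeR adjusted p = 0.717), -1.18 without Mouse6 and -1.62 without Mouse7. Gstp1 passed in edgeR without the filter on low counts. In the AAVrh.10Null livers Gstp1 was at 949, 2635 and 2498 CPM, so Mouse2 resembled the AAVrh.10mCherry livers and the other 2 resembled PBS. Gstp1 has close copies in the genome, and no source used here says how reads were divided among them.

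The promoters of these 2 genes, from 250 bases before to 50 bases after the RefSeq transcription start (GRCm38.p6), are shown because Alas1 and Gstp1 carry the largest fold changes of these named genes in each direction. Capitals mark TTCNNNGAA, the STAT-type palindrome (identical on both strands), which was searched for because Gstp1 belongs to the growth hormone-controlled genes described later. The Alas1 window is chr9:106247905-106248204 and the Gstp1 window chr19:4037863-4038162, both on the minus strand and printed 5′ to 3′.
Alas1: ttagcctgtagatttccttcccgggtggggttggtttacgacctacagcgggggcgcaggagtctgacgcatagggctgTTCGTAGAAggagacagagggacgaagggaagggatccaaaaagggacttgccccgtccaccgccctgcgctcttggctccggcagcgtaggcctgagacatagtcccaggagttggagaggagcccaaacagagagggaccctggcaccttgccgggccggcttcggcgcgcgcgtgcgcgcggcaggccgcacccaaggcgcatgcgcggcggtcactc
Gstp1: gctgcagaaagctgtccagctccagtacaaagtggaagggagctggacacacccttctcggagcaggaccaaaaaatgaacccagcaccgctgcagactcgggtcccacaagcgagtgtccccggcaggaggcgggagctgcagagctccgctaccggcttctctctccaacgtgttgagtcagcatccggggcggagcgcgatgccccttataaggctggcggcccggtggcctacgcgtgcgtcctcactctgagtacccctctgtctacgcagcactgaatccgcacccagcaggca
The Alas1 window held 1 match and the Gstp1 window held 0. Over all 27025 genes with a RefSeq promoter, 8.47% of these windows held a match, and 2 of 25 male-biased and 2 of 14 female-biased growth hormone targets with a promoter did. RefSeq lists 2 starts for Alas1, of which the first was used.

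The other 10 mouse genes that lay above the PBS range included regulators of transcription, growth and metal transport. Onecut2, a hepatocyte transcription factor, was at 134, 211 and 188 CPM in Mouse3, Mouse6 and Mouse9, against 82.0, 90.7 and 93.2 CPM in Mouse1, Mouse4 and Mouse7. Vegfa, the growth factor of endothelial cells, was at 45.2, 82.5 and 80.2 CPM in the AAVrh.10mCherry livers and 36.5, 30.6 and 20.7 CPM in the PBS livers. Slc39a14, a zinc and iron importer, was at 55.9, 66.0 and 95.5 CPM in the AAVrh.10mCherry livers and 46.8, 36.1 and 24.2 CPM in the PBS livers. In all 3 genes the groups stayed apart with Mouse3 nearest to PBS. Nlrp6, a cytosolic sensor of the NOD-like receptor family, was at 132, 158 and 164 CPM in the AAVrh.10mCherry livers, against 98.3, 90.5 and 79.4 CPM in the PBS livers, with a log2 fold change of 0.74 ± 0.21 (SE). Mark3 (a polarity kinase), Pds5a (a cohesin regulator), Cdk13 and Ccnt2 (a kinase and a cyclin of transcription elongation), Zfc3h1 (a nuclear RNA decay adaptor) and Pum2 (an mRNA-binding repressor) had log2 fold changes of 0.69 to 1.08. Those 6 were low transcripts, at 19.6 to 48.1 CPM in the AAVrh.10mCherry livers and 3.45 to 24.5 CPM in the PBS livers, and the level of 3.45 CPM for Cdk13 is 1 UMI in Mouse7. The AAVrh.10Null livers, set against the same PBS livers, were at 171 to 251 CPM for Onecut2, 65.4 to 102 CPM for Vegfa and 198 to 213 CPM for Nlrp6. With the filter on low counts none of these 10 genes passed in edgeR, each with an adjusted p of 0.717, and without it Vegfa passed.

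The genes named for lying below the PBS range had diverse functions. Dhcr7, which makes cholesterol from its last precursor, was at 29.3, 18.3 and 34.5 CPM in the AAVrh.10mCherry livers and 47.0, 71.4 and 38.0 CPM in the PBS livers, and the gap between Mouse9 and Mouse7 was small. Pmvk, a kinase of the mevalonate pathway, was at 44.2, 37.8 and 53.4 CPM in the AAVrh.10mCherry livers and 76.0, 95.2 and 72.5 CPM in the PBS livers. Osgin1, an oxidative stress-induced growth inhibitor, was at 214, 152 and 197 CPM in the AAVrh.10mCherry livers, whereas the PBS livers lay within 346 to 355 CPM. Its log2 fold change was -0.91 ± 0.28 (SE), and its level in Mouse7 rested on 103 UMIs. Choosing genes by separation and small p favours those whose PBS livers lie close together, so that closeness adds no support. Bst2, an interferon-inducible protein that tethers budding virus, was at 153, 87.2 and 125 CPM in the AAVrh.10mCherry livers and 201, 194 and 300.2 CPM in the PBS livers. Nenf, Chid1, Lmf1, Rdh11 (a retinal reductase), Glmp and the major urinary protein pseudogene Mup-ps21 had log2 fold changes of -0.70 to -1.51. In each of the lower genes named here except Glmp, Mouse6 was the lowest of the 3 AAVrh.10mCherry livers. The signs of the 24 genes, mCherry included, held in all 403 values obtained under other settings and with libraries left out. Leaving out a liver cannot change the order of groups that do not overlap, so this is no sign of stability.

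**Figure D2:**
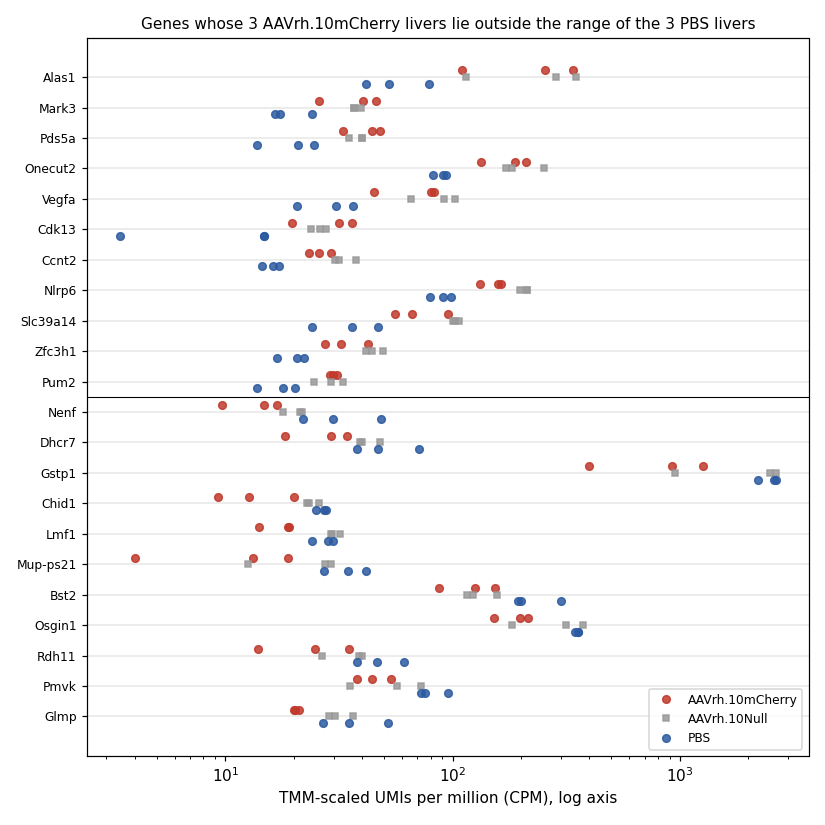
TMM-scaled CPM (log axis) in each liver for 22 mouse genes chosen by the separation of their groups, 11 with higher levels above the line and 11 with lower levels below it. For each gene the upper red points are the 3 AAVrh.10mCherry livers, the grey squares the 3 AAVrh.10Null livers and the lower blue points the 3 PBS livers; red and blue do not overlap in any gene, since that is how the genes were chosen.

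Mouse6 differed from all other livers in the growth hormone-controlled genes. Of 34 male-biased genes in the tables, 32 were lowest in Mouse6 among the 6 livers and also among all 9 (Socs2 and Moxd1 were the exceptions), against 1779 of all 11321 tested genes (15.7%) among the 6. The median male-biased gene was 16.9 times higher in the median of the other 5 livers than in Mouse6. Summed over the list, the male-biased genes were at 69548, 7050 and 44331 CPM in Mouse3, Mouse6 and Mouse9, and at 84454, 92584 and 39418 CPM in Mouse1, Mouse4 and Mouse7. Mouse6 alone was low, and Mouse7, the thinnest PBS library, was below both other AAVrh.10mCherry livers. These values describe 1 library, with no test, because Mouse6 was singled out on earlier results of these data.

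The male-biased transcripts with the widest gaps below the other livers were far lower in Mouse6, but not all male-biased transcripts were nearly missing there. Mup3 was found in 92.6% of the barcodes of Mouse6, at 3545 CPM against 15488 to 31971 CPM in the other 5 livers. Elovl3, a fatty acid elongase, was at 290, 3.66 and 266 CPM in Mouse3, Mouse6 and Mouse9, and at 515, 553 and 390 CPM in Mouse1, Mouse4 and Mouse7. Hsd3b5, a steroid-reducing hydroxysteroid dehydrogenase, was at 237, 2.74 and 195 CPM in the AAVrh.10mCherry livers and 295, 265 and 104 CPM in the PBS livers. Selenbp2, a selenium-binding protein, was at 776, 16.5 and 452 CPM in the AAVrh.10mCherry livers and 1007, 976 and 638 CPM in the PBS livers. Serpina1e, an alpha-1 antitrypsin paralog, was at 10791, 255 and 7569 CPM in the AAVrh.10mCherry livers and 17208, 14268 and 7496 CPM in the PBS livers. For Elovl3 and Mup14 all 3 AAVrh.10mCherry livers lay below the PBS range, whereas for Hsd3b5, Selenbp2, Serpina1e and Mup7 Mouse3 or Mouse9 lay inside it. Serpina1e was found in 19.6% of the barcodes of Mouse6 and in 94.4% to 100% of those of the other 5 livers, so the low level extended over most barcodes. The Mup and Serpina1 families are clusters of near-identical genes, and values of single members are uncertain for that reason.

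Most female-biased transcripts were at their highest in the same liver. Of 16 female-biased genes in the tables, 6 passed the filter on low counts, and 5 of these were highest in Mouse6 among the 6 livers, against 2153 of 11321 tested genes (19.0%). Of the 10 that did not pass it, 8 were highest in Mouse6, some on few UMIs: Sult2a1 and A1bg had 2 UMIs there and Sult3a1 had 5. Cyp2b9, a female-specific cytochrome P450, had 1234 UMIs in Mouse6, 0 in Mouse3 and 12 in Mouse9, and it had 0, 0 and 1 UMI in Mouse1, Mouse4 and Mouse7. Cyp2b13, a neighbour of Cyp2b9 in the same family, had 86 UMIs in Mouse6 and 0 in the other 8 livers. Cux2, a female-specific repressor of male-biased genes, had 31 UMIs in Mouse6 and at most 2 in any other liver. Cyp2b9 was found in 16.4% of the barcodes of Mouse6. Gstm3 was the female-biased gene that went the other way, with its lowest level of the 6 livers in Mouse6.

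Mouse6 was nonetheless male by its Y-linked genes. Ddx3y was at 83.0, 93.4 and 104 CPM in Mouse3, Mouse6 and Mouse9, and at 63.9, 91.7 and 82.8 CPM in Mouse1, Mouse4 and Mouse7. Eif2s3y, Kdm5d and Uty were also within the range of the other livers in Mouse6, and Xist had 8 UMIs there. The library therefore combined Y-linked transcripts at the level of its neighbours with low male-biased and high female-biased liver genes. Igf1, the growth hormone-driven growth factor, was at 797 CPM in Mouse6, against 1280 and 1240 CPM in Mouse3 and Mouse9 and 1319, 1750 and 973 CPM in the PBS livers.

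**Figure D3:**
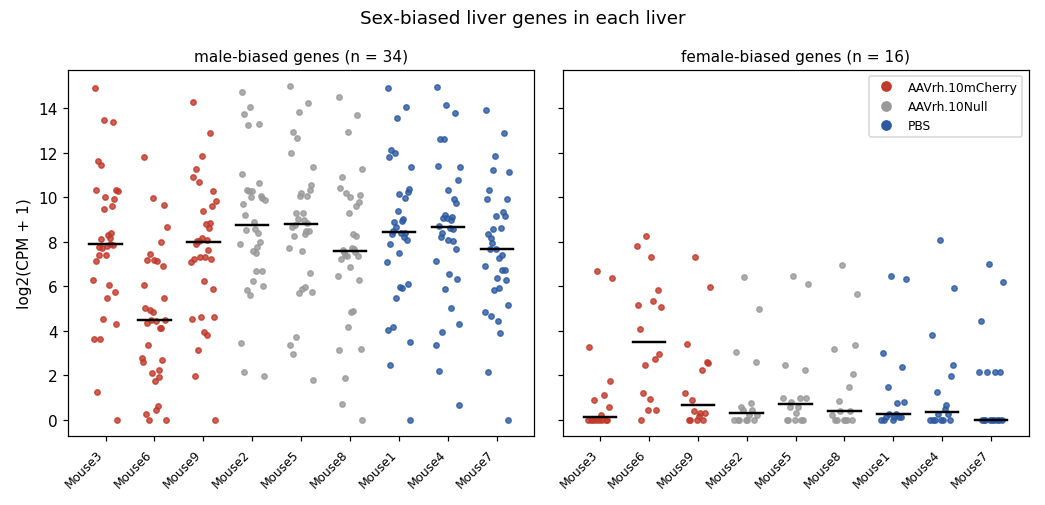
log2(CPM + 1) of 34 male-biased (left) and 16 female-biased (right) liver genes in each liver, with AAVrh.10mCherry livers on the left of each panel, AAVrh.10Null in the middle and PBS on the right. Each point is 1 gene and the black bar is the median; Mouse6 has the lowest male-biased and the highest female-biased median of the 9 livers.

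Among genes with a mean of at least 20 CPM, the 6 widest gaps of Mouse6 above the other livers were mostly in lipid and drug metabolism. Cyp4a14, a fatty acid hydroxylase induced through PPARA, was at 22.4, 364 and 83.5 CPM in Mouse3, Mouse6 and Mouse9, and at 21.5, 118 and 110 CPM in the PBS livers. Angptl8, a feeding-induced inhibitor of lipoprotein lipase, was at 80.6, 440 and 151 CPM in the AAVrh.10mCherry livers and 122, 43.3 and 152 CPM in the PBS livers. Slco1a4, a sinusoidal anion transporter, was at 24.1, 126 and 50.2 CPM in the AAVrh.10mCherry livers and 21.3, 31.0 and 38.0 CPM in the PBS livers. In each of them Mouse6 alone stood out. Ildr2, Gstt3 (a glutathione transferase) and Mir6236 were the other 3 of the 6. Of the clock-controlled genes, Tef was at 25.1, 85.9 and 34.6 CPM in the AAVrh.10mCherry livers and 30.4, 16.0 and 3.45 CPM in the PBS livers. The median log2 fold change of 18 clock genes was 0.69, against 0.03 without Mouse6. Of the 18, 4 lay above the PBS range and 1 below it, against 8.75% and 4.81% of all tested genes. None passed in edgeR, but Ciart, Dbp, Per3, Tef and Usp2 did without the filter on low counts. High clock levels were not particular to Mouse6. Tef was at 67.0, 33.6 and 82.3 CPM in the AAVrh.10Null livers Mouse2, Mouse5 and Mouse8. The summed clock genes were at 529, 411 and 644 CPM in those 3 livers, against 621 CPM in Mouse6.

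Leaving out Mouse6 changed the medians of the sex-biased lists, while the male-biased one stayed below 0. The median log2 fold change of the 33 tested male-biased genes was -1.04 with all 6 livers, -0.50 without Mouse6 and -1.26 without Mouse7, beside 0.02 over all 11321 genes. Of the 33, 32 had a fold change below 0 (48.2% of all genes did). For 9 all 3 AAVrh.10mCherry livers lay below the PBS range (4.81% of all genes). These were Elovl3, Gstp1, Igfals and the major urinary protein genes Mup9, Mup10, Mup14, Mup15, Mup18 and Mup19. The Mup genes are near-identical, so these counts are not of independent genes, and Mup10 had 1 UMI in Mouse7. Mup9, one of the scent-carrying proteins excreted in male urine, was at 140, 31.3 and 149 CPM in the AAVrh.10mCherry livers and 236, 415 and 324 CPM in the PBS livers. Mup19 was at 22.1, 3.29 and 23.5 CPM in the AAVrh.10mCherry livers and 43.5, 57.7 and 55.2 CPM in the PBS livers. In both genes Mouse3 and Mouse9 lay between Mouse6 and PBS. The tested female-biased genes had a median of 0.86, which became -0.10 without Mouse6. No member of either list passed in edgeR. Without the filter on low counts 9 of the 33 male-biased genes passed, Elovl3, Gstp1, Mup9 and Mup19 among them, and 2 of the 6 female-biased ones, Acot3 and Cyp17a1.

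Housekeeping lists had small fold changes that nearly all pointed in 1 direction, and none of their members passed in edgeR (mt-Rnr1 did without the filter on low counts). Of 75 nuclear-encoded subunits of oxidative phosphorylation, 74 had a fold change below 0, with a median of -0.32, and 17 lay below the PBS range in all 3 AAVrh.10mCherry livers and 0 above it. Over all tested genes 48.2% were below 0, 4.81% lay below the PBS range and 8.75% above it. Summed over the list they were at 30775, 27171 and 26900 CPM in Mouse3, Mouse6 and Mouse9, and at 32190, 35226 and 36961 CPM in Mouse1, Mouse4 and Mouse7, with no overlap. Uqcrc1, a core subunit of complex III, was at 178, 169 and 183 CPM in the AAVrh.10mCherry livers and 271, 193 and 335 CPM in the PBS livers. The mitochondrially encoded transcripts went the other way, with 10 of 10 above 0 (51.8% of all genes) and a median of 0.37 (0.65 without Mouse7), but their summed level overlapped, at 62226, 164640 and 95539 CPM in the AAVrh.10mCherry livers and 77126, 35675 and 94359 CPM in the PBS livers. Of 76 cytosolic ribosomal proteins, 74 were below 0 with a median of -0.26 (-0.40 without Mouse6), 3 lay below the PBS range, and the summed level overlapped. The nuclear-encoded median was -0.26 without Mouse6 and -0.28 without Mouse7. Malat1, a nuclear long RNA, was at 5949, 9485 and 5910 CPM in the AAVrh.10mCherry livers and 4951, 2880 and 16030 CPM in the PBS livers. It was highest in Mouse7, which also had the highest nuclear-encoded sum, and its levels overlapped between the groups.

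Lists of lipoprotein, coagulation and complement genes mostly had small negative fold changes. None of their members passed in edgeR, though Pltp did without the filter on low counts. Of 24 acute phase genes, 17 were below 0 with a median of -0.19 and 0 lay apart. Without that filter the acute phase genes Saa1 and Saa2 passed. Over all tested genes 48.2% were below 0, 4.81% lay below the PBS range and 8.75% above it. Of 17 apolipoproteins and lipoprotein assembly factors, 16 were below 0, with a median of -0.28, and 5 lay below the PBS range (Apoa5, Apoh, Apom, Lcat and Pltp) while Apob lay above it. Lcat, which esterifies cholesterol in plasma, was at 223, 241 and 205 CPM in the AAVrh.10mCherry livers and 265, 308 and 297 CPM in the PBS livers. Of 25 coagulation and fibrinolysis genes, 22 were below 0 with a median of -0.20, and 5 lay below the PBS range (F2, F10, F12, Proc and Serpind1). F12, the contact factor of coagulation, was at 180, 142 and 169 CPM in the AAVrh.10mCherry livers and 237, 219 and 197 CPM in the PBS livers. Of 27 complement genes, 23 were below 0 with a median of -0.36, of which only C4a, a near-identical copy of C4b, lay below the PBS range. The coagulation median was -0.07 and the complement median -0.17 without Mouse6, so both medians were nearer to 0 without that liver. Without Mouse7 they were farther from 0, at -0.35 for coagulation and -0.48 for complement.

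Lipid synthesis lists also had negative medians, with 0 genes passing in edgeR. Of 25 genes of cholesterol synthesis and SREBP2 targets, 17 were below 0, with a median of -0.22 (-0.37 without Mouse7), and Mvk, Pmvk, Fdps and Dhcr7 lay below the PBS range with 0 above it. The shares over all tested genes were 48.2% below 0, 4.81% below the range and 8.75% above it. Mvk, the mevalonate kinase that acts just before Pmvk, was at 11.5, 18.6 and 15.3 CPM in the AAVrh.10mCherry livers and 27.8, 23.8 and 20.7 CPM in the PBS livers. Of 21 fatty acid synthesis genes, 15 were below 0 with a median of -0.37. Acly, Elovl5 and Slc25a1 lay below the PBS range and Acaca above it. Acly, which makes cytosolic acetyl-CoA, was at 66.4, 77.3 and 74.4 CPM in the AAVrh.10mCherry livers and 106, 131 and 79.4 CPM in the PBS livers, a narrow separation. In bile acid metabolism, Cyp8b1, the 12-alpha-hydroxylase, was at 144, 31.1 and 177 CPM in the AAVrh.10mCherry livers and 239, 326 and 217 CPM in the PBS livers, while the list of 22 had a median of -0.0031 (-0.15 without Mouse7). Cyp8b1 passed in edgeR without the filter on low counts.

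In lists on the response to a vector, of which complement is described above, few members lay apart from the PBS range. Of 22 MHC class I presentation genes, 20 were below 0 with a median of -0.32 (-0.23 without Mouse6, -0.34 without Mouse7). Among these MHC class I genes 1 lay above and 1 below the PBS range. Of 30 tested genes of the type I interferon response, 12 were above and 18 below 0 with a median of -0.09. In this list 1 gene lay above and 1 below the PBS range. To set beside each list here, 51.8% of all tested genes were above 0 and 48.2% below it. Likewise, 8.75% of all tested genes lay above the PBS range and 4.81% below that range. Stat2, a transducer of interferon signals, was at 41.2, 60.1 and 60.8 CPM in the AAVrh.10mCherry livers and 29.9, 40.8 and 41.4 CPM in the PBS livers, a slight overlap. The 13 interferon gamma-induced GTPases had a median of -0.05 and the 26 genes of AAV entry and trafficking -0.02, with 0 members apart in either list. Among 14 sensors of DNA and RNA, with a median of 0.04, Ddx58 (the RNA sensor RIG-I) and Mavs (its mitochondrial adaptor) lay above the PBS range. Ddx58 was at 30.6, 24.9 and 23.9 CPM in the AAVrh.10mCherry livers and 23.3, 16.4 and 13.8 CPM in the PBS livers, so that Mouse9 and Mouse1 nearly met. The interferon gamma GTPase median changed sign without Mouse6, to 0.04, and under limma-voom, to 0.12. The median of the type I interferon list changed sign without Mouse6, to 0.05, and after all livers were thinned to 291338 UMIs, to 0.46. The list of DNA and RNA sensors changed sign without Mouse7, to -0.05, and also under limma-voom.

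Of 19 p53 and DNA damage targets, 13 were above 0 with a median of 0.26, and Mdm2, Trp53inp1, Zmat3 and Plk3 lay above the PBS range while Perp lay below it. Over all tested genes 51.8% were above 0, 8.75% lay above the PBS range and 4.81% below it. Mdm2, the ubiquitin ligase of p53, was at 35.5, 30.2 and 26.7 CPM in the AAVrh.10mCherry livers and 22.98, 19.1 and 10.4 CPM in the PBS livers. Plk3, a stress-activated kinase, was at 30.8, 21.4 and 37.3 CPM in the AAVrh.10mCherry livers and 19.6, 10.1 and 17.3 CPM in the PBS livers. Trp53inp1, a p53-induced nuclear protein, was at 51.5, 25.8 and 45.5 CPM in the AAVrh.10mCherry livers and 25.6, 23.02 and 17.3 CPM in the PBS livers, with Mouse6 level with Mouse1. The median was 0.29 without Mouse6 and 0.47 without Mouse7, and none of the 19 passed in edgeR. Of 32 heat shock and chaperonin genes, 29 were above 0 with a median of 0.19 (0.11 without Mouse7), and 1 lay above the PBS range, beside the same shares over all genes.

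**Figure D4:**
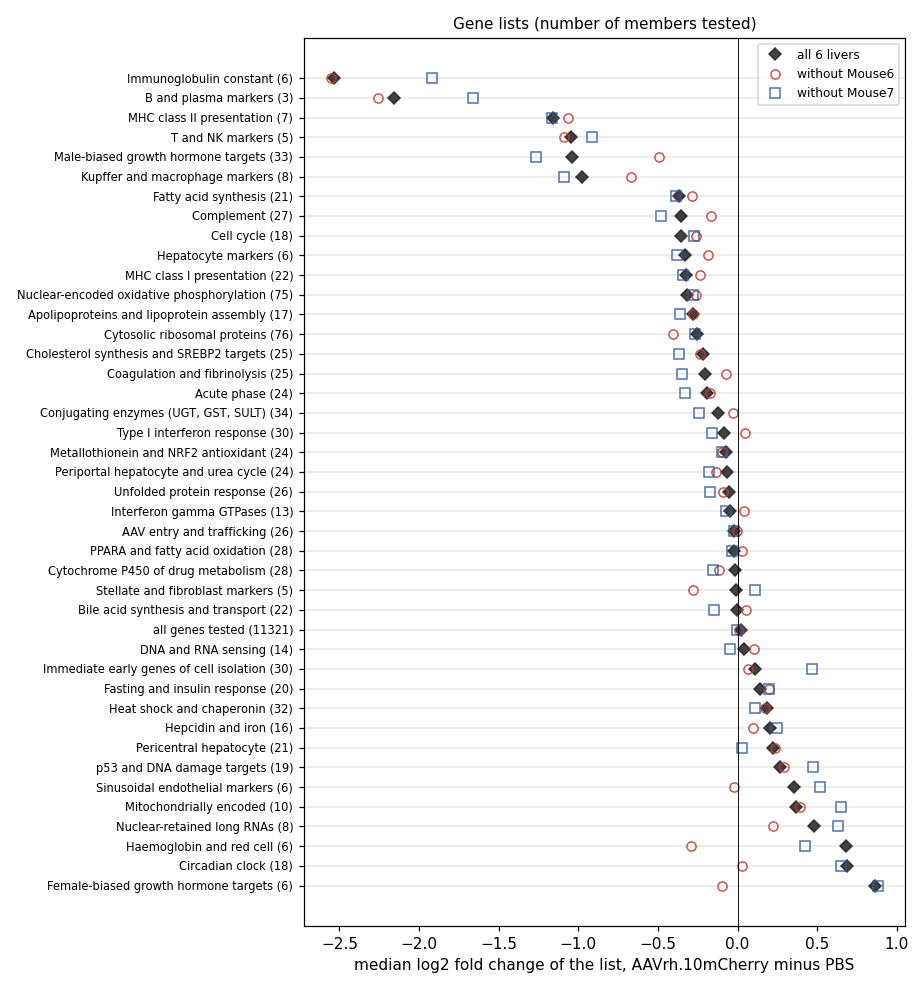
Median log2 fold change, AAVrh.10mCherry minus PBS, of each gene list with at least 3 tested members (number tested in brackets), ordered by the median with all 6 livers. Diamonds use all 6 livers, circles leave out Mouse6 and squares leave out Mouse7; the male-biased median is -1.04, -0.50 and -1.26 in that order, and the female-biased and clock lists lie near 0 without Mouse6.

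Lymphoid and antigen-presenting transcripts had wide negative medians, and the highest sum of each list was in 1 of the PBS livers Mouse4 and Mouse7. The immunoglobulin, B and plasma, and T and NK sums were highest in Mouse7. The MHC class II and the Kupffer and macrophage sums were highest in Mouse4, and the latter was lower in Mouse7 than in Mouse1, Mouse3 and Mouse9. The 6 tested immunoglobulin constant genes had a median of -2.54, with 6 of 6 below 0 and 3 below the PBS range (48.2% and 4.81% of all genes). Igkc, the kappa light chain, was at 5.02, 5.30 and 2.29 CPM in the AAVrh.10mCherry livers and 4.77, 21.5 and 383 CPM in the PBS livers, so that Mouse7 stood apart and Mouse1 lay among the AAVrh.10mCherry livers. The 111 Igkc UMIs of Mouse7 came from 1.64% of its barcodes, and Igha, the heavy chain of mucosal antibody, had 62 UMIs there and 0 to 5 in the other 5 livers. In Mouse7 those 62 UMIs came from 0.182% of the barcodes, the share that any gene with 1 UMI has there, such as Cyp2b9. The 20 UMIs of Jchain, a B and plasma marker, came from the same share of barcodes in Mouse7. The B and plasma markers Ms4a1 and Cd79b had 0 UMIs there. Without Mouse7 the immunoglobulin median was -1.92. The 7 MHC class II genes were all below 0 with a median of -1.16 and 0 apart. Without the filter on low counts Cd74, H2-Ab1 and H2-Eb1 of this list passed in edgeR. So did the immunoglobulin genes Ighm, Igkc and Iglc2 and the Kupffer marker C1qb. H2-Ab1, a class II beta chain of antigen-presenting cells, was at 34.8, 19.0 and 13.5 CPM in the AAVrh.10mCherry livers and 18.5, 103 and 24.2 CPM in the PBS livers, where Mouse4 alone was high. Marker lists of B, T, NK and Kupffer cells were also below 0 in every tested member, with medians of -2.16 (B and plasma), -1.05 (T and NK) and -0.98 (Kupffer and macrophage), whereas those of endothelial, stellate and cholangiocyte markers were not. The median was 0.36 for 6 sinusoidal endothelial markers (-0.02 without Mouse6), -0.01 for 5 stellate markers, 0.31 for 2 cholangiocyte markers and -0.04 for 2 platelet markers. Summed endothelial markers were at 169 to 377 CPM in the AAVrh.10mCherry livers and 181 to 321 CPM in the PBS livers. Summed over 6 B and plasma markers, the level was 6.11 to 7.31 CPM in the AAVrh.10mCherry livers and 6.67 to 500.4 CPM in the PBS livers. Over 8 Kupffer and macrophage markers it was 35.7 to 137 CPM in the AAVrh.10mCherry livers and 51.8 to 251 CPM in the PBS livers, and over 6 T and NK markers it was 23.1 to 41.3 CPM in the AAVrh.10mCherry livers and 5.63 to 124 CPM in the PBS livers. Neutrophil markers reached 0.914 CPM in the AAVrh.10mCherry livers and 5.27 CPM in the PBS livers, and dendritic markers at most 0.366 and 0.585 CPM. Exact 2-sided permutation p-values of 20 library measures, marker sums and mCherry included, were 0.1 to 1 (all adjusted p = 1), and since 3 against 3 cannot go below 0.1 no measure could have passed. The part of cell makeup in the lists was not tested.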

How the data were processed

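Liver cells of 9 mice had been captured by Drop-seq and sequenced with 101 cycles per end, per the labels' protocols. Per the submitters' processing notes, the genome was mm10 and Seurat was used. Not given in the sources used here are the aligner, the counter, its strand setting, the annotation and how barcodes were chosen. Each deposited table holds the authors' UMI count per gene and barcode, unscaled, as whole numbers for 1 mouse. mCherry was taken as 0 where a table did not list it.

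UMIs were summed per gene over barcodes with at least 200 genes, giving 291338 to 11220147 UMIs per liver for the 6 livers compared. In R 4.3.3, edgeR 4.0.16 (TMM, filterByExpr, quasi-likelihood) was fitted to all 9 livers with group as the only term, and AAVrh.10mCherry was contrasted with PBS with Benjamini-Hochberg adjustment at 0.05. The biological coefficient of variation was 0.266. Levels are TMM-scaled CPM, except for mCherry in CPM of all UMIs where so stated. Each label describes a separate mouse. Alternatives used DESeq2 1.42.0 and limma 3.58.1, other filters, thinning and left-out livers. The edgeR procedure was tested on simulated data. Tables and plots were made in Python 3.11.15 with pandas 2.3.3, scipy 1.17.1 and matplotlib 3.10.9. No doublets were removed, since sums use every barcode.

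Named genes were mCherry, the 12 per direction with the smallest p among genes of at least 20 CPM whose groups lay apart, up to 3 per list with the smallest p, and the 6 per direction with the widest gap of Mouse6 on log2(CPM + 5). Members of sex-biased lists beyond these, Y-linked genes, Gm45836, Igha, Jchain and genes listed by name for lying apart were chosen after their values were seen. The livers, genes and 45 lists were chosen with earlier results of these data known. Gene positions are from GENCODE release 21 (M21), promoters from RefSeq. Some named-gene results are not reported here.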

Additional observations from a re-analysis of the deposited data

Results flagged for a closer look

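mCherry was also found in barcodes that did not enter the sums. The 17 barcodes of Mouse6 with under 200 genes held 17 mCherry UMIs among 7987, whereas the 3050 such barcodes of Mouse7, a PBS liver, held 0 among 791753. It was listed because it is a signal in data outside the sums that exceeds the level in a control liver.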

How the results depend on the processing

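The count of called genes was 0 under edgeR with all settings except 2. It was 102 with no filter on low counts (45 higher and 57 lower, of 26282 genes) and 1, mCherry, after thinning every liver to 291338 UMIs, and DESeq2 called 2. In the unfiltered fit edgeR's prior degrees of freedom were infinite, against 6.65 in the filtered one. Of its 102 genes, 62 had overlapping groups, among them Cyp2b9, Igkc and Igha, each carried by Mouse6 or Mouse7. The others included Alas1, Gstp1, Elovl3, Mup9 and Mup19, and the cause was not tested. The count of genes whose groups lay apart was 454 after thinning, when only 3686 genes were tested, and 4044 without both Mouse6 and Mouse7. It ranged from 1980 to 3429 with 1 liver left out, since fewer livers overlap less. The share of these genes that were higher was 55.1% after thinning, against 64.6%. mCherry in Mouse6 was 6364 CPM with a mitochondrial limit of 50% and 5600 CPM with at least 500 genes per barcode, a setting at which Mouse8 was at 0. Of 725 list medians under alternatives, 602 moved by less than the spread between AAVrh.10mCherry livers and 123 by more. At the depth of Mouse7, levels under 10.3 CPM lie at or below 3 UMIs, and a PBS range often ends at its value. No paired analysis was possible because the replicate numbers are mouse numbers and no number is shared between groups.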
